A study of Mus musculus with 4 samples.

Results

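Thrombospondins and tissue inhibitors of metalloproteinases were followed through 5 genes, Thbs1, Thbs2, Timp1, Timp2 and Timp3, among the 12393 genes that the array names. They were taken by name from the array's probe-to-gene annotation, which gave 15 probe sets: 2 each for Thbs1 and Thbs2, 1 for Timp1, 6 for Timp2 and 4 for Timp3. Macrophages were sorted as YFP-positive cells from mouse mammary glands and profiled on 4 Affymetrix arrays, 1 for each group. The tumor Ets2-deficient array came from macrophages of early-stage mammary tumors driven by polyoma middle T antigen (PyMT) with both copies of Ets2 deleted. The tumor Ets2-expressing array came from the same kind of tumor, and its sample is called wild type in its title but 1 copy of Ets2 in its source label. The remodeling Ets2-deficient array came from remodeling glands without tumor, with both copies of Ets2 deleted, and the remodeling Ets2-expressing array from wild-type glands without tumor. The design text places the loss of Ets2 in the macrophages. All 4 groups carried the YFP reporter. The driver of the reporter, the driver of the deletion, the deleted exons, the age of the mice and the number of mice behind each RNA sample are not given in the sources used here.

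Thrombospondins 1 and 2 are secreted matricellular glycoproteins that restrain the growth of blood vessels, in part through the receptors CD36 and CD47 on endothelial cells. Tissue inhibitors of metalloproteinases (TIMPs) are small secreted proteins that block the catalytic site of matrix metalloproteinases and of some ADAM and ADAMTS proteases, and so slow the breakdown of extracellular matrix. In the mammary gland, matrix turnover by metalloproteinases accompanies involution and tumor growth. Ets2 is a transcription factor of the ETS family, whose members bind DNA with a GGAA core. Values are log2 expression values as deposited. A difference of 1 log2 is 2-fold, the limit used for counting, and a gene was counted only where the brighter of the 2 arrays lay at or above its own median over all probe sets ("bright"). Each gene is given by its brightest probe set unless others are named.

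The promoters of the genes are shown because 4 of the 5 genes were lower together on one array and because the deleted factor has a known core motif. Of the 5 genes, 4 (all but Thbs1) had an entry in the RefSeq promoter table (build GRCm38.p6, 250 bases before to 50 after the gene's start, read 5′ to 3′ on the gene's strand). They lie at chr17:14694213-14694512 on the minus strand (Thbs2), chrX:20869916-20870215 on the plus strand (Timp1), chr11:118355362-118355661 on the minus strand (Timp2) and chr10:86300162-86300461 on the plus strand (Timp3). Capitals mark the ETS core GGAA on either strand (TTCC where it lies on the other strand) and the AP-1-like word TGAGTAA.
Thbs2: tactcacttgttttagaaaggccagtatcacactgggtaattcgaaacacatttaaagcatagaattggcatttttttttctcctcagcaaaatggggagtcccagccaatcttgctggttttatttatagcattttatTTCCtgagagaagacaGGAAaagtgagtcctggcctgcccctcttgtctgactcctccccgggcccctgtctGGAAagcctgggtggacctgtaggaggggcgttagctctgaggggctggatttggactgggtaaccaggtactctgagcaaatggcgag
Timp1: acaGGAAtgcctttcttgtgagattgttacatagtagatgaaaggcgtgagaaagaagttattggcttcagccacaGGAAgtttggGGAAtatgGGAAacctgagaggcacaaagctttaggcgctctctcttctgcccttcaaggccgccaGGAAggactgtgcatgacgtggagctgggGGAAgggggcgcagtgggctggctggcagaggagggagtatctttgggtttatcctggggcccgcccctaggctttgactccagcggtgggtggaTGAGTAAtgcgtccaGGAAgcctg
Timp2: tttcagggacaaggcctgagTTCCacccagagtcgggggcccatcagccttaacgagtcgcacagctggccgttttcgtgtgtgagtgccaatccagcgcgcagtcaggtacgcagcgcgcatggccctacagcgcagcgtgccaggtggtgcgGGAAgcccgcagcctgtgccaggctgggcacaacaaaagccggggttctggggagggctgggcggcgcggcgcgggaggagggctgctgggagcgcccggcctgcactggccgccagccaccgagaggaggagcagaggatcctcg
Timp3: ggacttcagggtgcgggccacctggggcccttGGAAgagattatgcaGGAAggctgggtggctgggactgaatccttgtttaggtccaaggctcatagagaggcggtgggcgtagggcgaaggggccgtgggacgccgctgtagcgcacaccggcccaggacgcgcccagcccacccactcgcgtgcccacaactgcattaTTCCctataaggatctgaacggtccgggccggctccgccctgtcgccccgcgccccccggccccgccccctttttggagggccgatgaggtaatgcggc
The core GGAA was found 3 times for Thbs2, 7 times for Timp1, 2 times for Timp2 and 3 times for Timp3. It stands in 96% of the 32851 promoters of that table, with a median of 3 matches. At least 7 matches, the number for Timp1, were present in 8.02% of all promoters, and at least 3 in 66.3%. The longer word AGGAAG, which contains the core, was found 3 times for Timp1 and 1 time for Timp3, and in 35.4% of all promoters. TGAGTAA was found for Timp1 only, starting at base 27 after the start, and in 2.68% of all promoters. The AP-1 word TGANTCA was in none of the 4 windows and in 7.81% of all promoters. The GC box GGGCGG was found 1 time each for Timp1 and Timp2 and 2 times for Timp3, and in 35.7% of all promoters. TATAAA was found 1 time for Thbs2 and in 13.6% of all promoters. All words were searched on both strands, and a match is a description of letters only.

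With 1 array per group there was no replicate check, and no test was run. The number of arrays limits the precision. The only spread at hand was that among the several bright probe sets that 1 gene can have, pooled over all genes, a standard deviation of 0.338 log2 in the tumor Ets2 comparison, 0.278 in the remodeling Ets2 comparison, and 0.320 (Ets2-deficient arrays) and 0.410 (Ets2-expressing arrays) in tumor minus remodeling. It covers neither mice, sorts nor amplification. Array medians lay between 5.98 and 6.30 and the 25th percentiles between 4.27 and 4.32. The Ets2 probe set read 12.67 on the tumor Ets2-deficient array, against 12.77 on the tumor Ets2-expressing array, and 12.97 on the remodeling Ets2-deficient array, against 13.24 on the remodeling Ets2-expressing array. It therefore did not separate the Ets2 labels, and since the deleted exons are not given it checks nothing if it lies outside them. Of 14 macrophage markers, 13 were at or above the median on every array, the exception being Itgam, and their mean was 11.34, 11.41, 11.25 and 11.05 on the tumor Ets2-deficient, tumor Ets2-expressing, remodeling Ets2-deficient and remodeling Ets2-expressing arrays. Of the 13, Cx3cr1 alone was past 2-fold in any comparison, and not in the tumor Ets2 comparison. It read 10.19, 9.53, 8.99 and 6.77 on the 4 arrays in the same order. On the remodeling Ets2-deficient array it was higher by 2.22 log2 than on the remodeling Ets2-expressing array. Tumor minus remodeling gave 1.195 on the Ets2-deficient and 2.76 on the Ets2-expressing arrays.

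Thbs1, which encodes thrombospondin-1, an activator of latent TGF-beta as well as an inhibitor of angiogenesis, read 6.32 on the tumor Ets2-deficient array, against 5.25 on the tumor Ets2-expressing array. In remodeling macrophages it read 7.34 on the Ets2-deficient array, against 9.09 on the Ets2-expressing array. Both tumor arrays thus lay below both remodeling arrays, and every step between neighbours in that order was wider than the spread between probe sets. A second Thbs1 probe set, below the 25th percentile of every array, read 4.02, 3.83, 3.94 and 4.26 on the tumor Ets2-deficient, tumor Ets2-expressing, remodeling Ets2-deficient and remodeling Ets2-expressing arrays. Its Ets2 differences had the same signs, 0.19 in tumor and -0.32 in remodeling macrophages, at a brightness where neither is past 2-fold.

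Thbs2, which encodes thrombospondin-2, a relative that restrains angiogenesis and collagen assembly, read 8.12 on the tumor Ets2-deficient array, against 7.93 on the tumor Ets2-expressing array. It read 6.79 on the remodeling Ets2-deficient array, against 9.81 on the remodeling Ets2-expressing array. The remodeling arrays were the highest and the lowest of the 4, and the tumor arrays between them did not differ beyond the spread between probe sets. The other Thbs2 probe set was below the median of every array and ran in the same order, at 5.15, 5.01, 3.55 and 5.78 on the tumor Ets2-deficient, tumor Ets2-expressing, remodeling Ets2-deficient and remodeling Ets2-expressing arrays.

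Timp1, the inducible inhibitor of most matrix metalloproteinases, has 1 probe set. It read 7.16 on the tumor Ets2-deficient array, against 6.25 on the tumor Ets2-expressing array, and 4.86 on the remodeling Ets2-deficient array, against 6.53 on the remodeling Ets2-expressing array. It was the 1 gene of the 5, apart from the nearly level Timp2, that was highest on the tumor Ets2-deficient array, and it was lowest on the remodeling Ets2-deficient array, where it lay below the array median. The 2 Ets2-expressing arrays differed by less than the spread between probe sets.

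Timp2, an inhibitor that also takes part in the activation of pro-Mmp2 by Mmp14, was bright and nearly level. Its brightest probe set read 11.70 on the tumor Ets2-deficient array, against 11.53 on the tumor Ets2-expressing array, and 11.34 on the remodeling Ets2-deficient array, against 11.54 on the remodeling Ets2-expressing array, between the 94.4th and the 96.1th percentile of each array. No neighbouring pair in this order differed beyond the spread between probe sets. The other bright probe sets were less level. The dimmest of them read 9.04 on the tumor Ets2-deficient array, against 9.60 on the tumor Ets2-expressing array, and 9.70 on the remodeling Ets2-deficient array, against 10.39 on the remodeling Ets2-expressing array. The 4 bright Timp2 probe sets did not share a sign in the tumor Ets2 comparison, where they gave 0.17, 0.07, -0.39 and -0.57. All 4 were negative in the remodeling Ets2 comparison, from -0.20 to -0.69, none past 2-fold. Actb control probe sets at the 3′ end, which exceed those at the 5′ end where RNA is shorter, did so by 3.54, 3.30, 2.96 and 2.72 on the tumor Ets2-deficient, tumor Ets2-expressing, remodeling Ets2-deficient and remodeling Ets2-expressing arrays, in that order. The Gapdh control probe sets gave 2.27, 2.45, 1.80 and 1.61, also higher on the tumor arrays, but those of Tfrc gave 5.27, 5.03, 5.96 and 5.75, higher on the remodeling arrays. The part of RNA length in the disagreement was not tested.

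Timp3, which is held in the matrix and also inhibits Adam17, Adamts4 and Adamts5, followed Thbs2. It read 7.60 on the tumor Ets2-deficient array, against 7.77 on the tumor Ets2-expressing array, and 6.81 on the remodeling Ets2-deficient array, against 9.98 on the remodeling Ets2-expressing array. The remodeling Ets2-expressing array stood apart above the other 3, and the tumor arrays did not differ beyond the spread between probe sets. The 2 other bright Timp3 probe sets gave the same highest and lowest array. The first read 7.34 on the tumor Ets2-deficient array, against 7.0 on the tumor Ets2-expressing array, and 6.33 on the remodeling Ets2-deficient array, against 9.32 on the remodeling Ets2-expressing array. The second read 6.67 on the tumor Ets2-deficient array, against 6.43 on the tumor Ets2-expressing array, and 5.03 on the remodeling Ets2-deficient array, against 7.89 on the remodeling Ets2-expressing array. A dim probe set, below the median everywhere, ran from 3.84 on the remodeling Ets2-deficient array to 5.26 on the remodeling Ets2-expressing array.

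**Figure D1:**
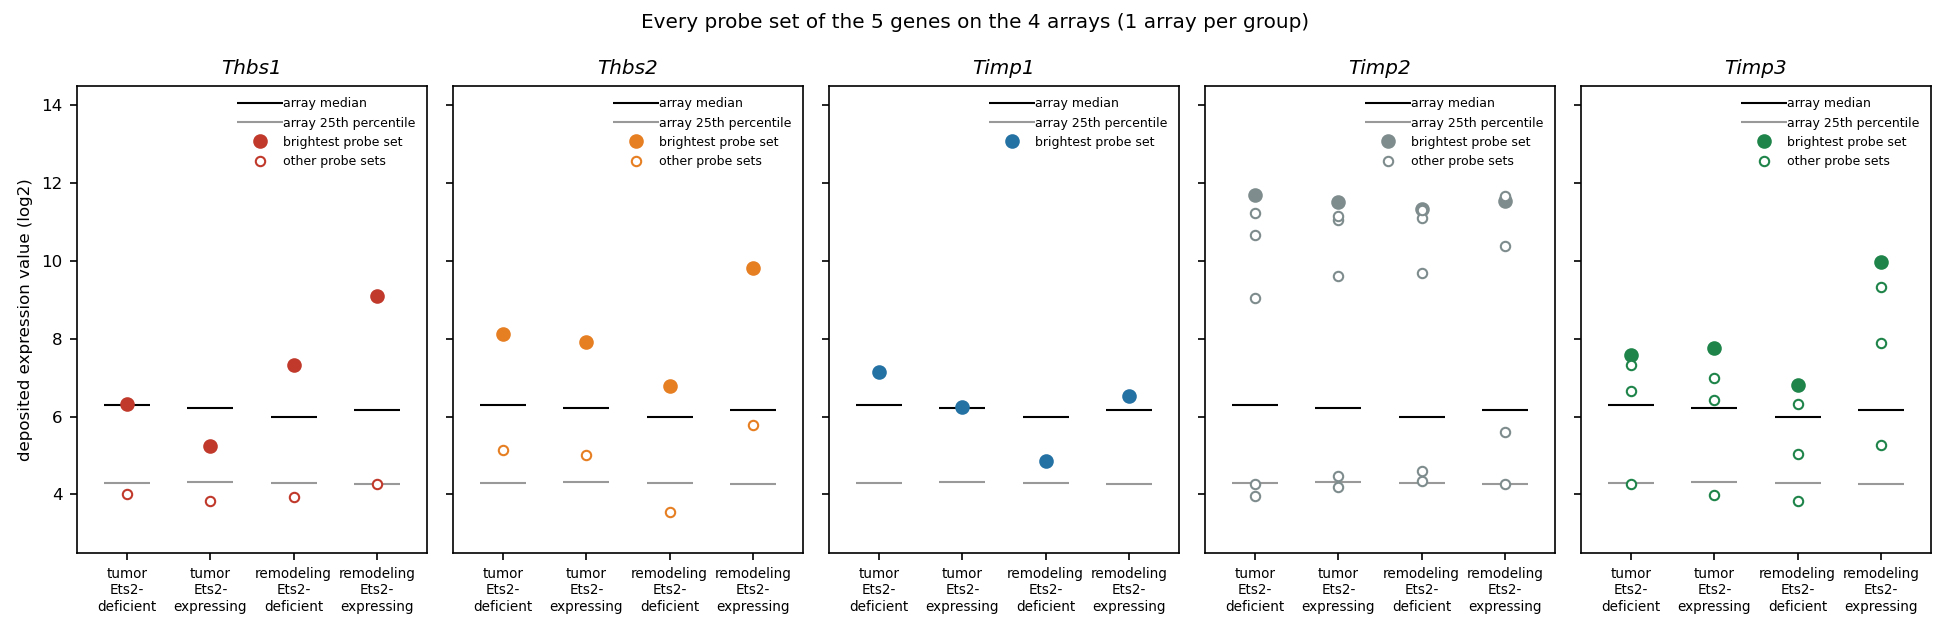
Deposited log2 values (vertical axis) of all 15 probe sets of the 5 genes on the 4 arrays, with filled points for the brightest probe set of a gene, open points for the others, and bars for each array's median and 25th percentile. Thbs1, Thbs2 and Timp3 are highest on the remodeling Ets2-expressing array, Timp2 is bright on all 4 arrays, and Timp1 is highest, at 7.16, on the tumor Ets2-deficient array.

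The first comparison asked what differs with loss of Ets2 in tumor macrophages. Of the 5 genes, Thbs1 alone was past 2-fold, higher by 1.07 log2 (2.09-fold) on the Ets2-deficient array, where 2.23% of 7225 bright genes were higher past 2-fold and 0.761% lower. Its brighter value, 6.32, lay just above that array's median of 6.30. After centring of the arrays on their medians the difference was 0.98, after quantile normalization 0.999, and as the mean of both Thbs1 probe sets 0.63, so none of these reached 2-fold. Timp1 was higher by 0.91 log2, more than the spread between probe sets but short of 2-fold. Among all bright genes, Thbs1 stood at percentile 98.2 and Timp1 at percentile 96.8. The differences of Thbs2 (0.19), Timp2 (0.17) and Timp3 (-0.18) were within that spread. The median of the 5 was 0.19, and that of all bright genes 0.034. Mammary epithelial markers also had a higher mean on this array, 9.68, against 8.65 on the tumor Ets2-expressing array (10 of 10 at or above the median on both). Of the 10, 9 had a difference above 0 and 2 were higher past 2-fold, Csn2 (3.70) and Wap (2.27). Neutrophil markers had a mean of 8.69, against 7.69 (4 of 7 at or above the median on both arrays). Of the 4 bright neutrophil markers, 3 were higher past 2-fold. The part of either list in the Thbs1 and Timp1 values was not tested.

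The same comparison in remodeling macrophages gave other values. Thbs1, Thbs2, Timp1 and Timp3 were all lower past 2-fold on the Ets2-deficient array, 4 of 5 genes, where 5.17% of 7095 bright genes were lower past 2-fold and 1.31% higher. The differences were -3.18 log2 for Timp3, -3.02 for Thbs2, -1.76 for Thbs1 and -1.68 for Timp1, each several times the spread between probe sets. The mean of the 2 Thbs1 probe sets gave -1.04, just past 2-fold. Timp2 differed by -0.20, which is within it, and which became 0.003 after centring on hybridization controls. Only 23 of the 7095 bright genes had a more negative difference than Timp3, and 33 a more negative one than Thbs2. Over all 15 probe sets, dim ones included, 14 were negative, the exception being a dim Timp2 probe set. Of the 10 bright ones, 6 were lower past 2-fold, where 5.06% of 10830 bright probe sets were. The 3 bright Timp3 probe sets averaged -3.01 ± 0.163 (SD over probe sets, n = 3). The median of the 5 genes was -1.76, against 0.048 for all bright genes.

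Markers of stromal cells differed in the same direction as these 4 genes. The mean of 13 fibroblast markers was 8.34 on the remodeling Ets2-deficient array, against 10.44 on the remodeling Ets2-expressing array, with 11 and 13 of the 13 at or above the array median. Of the 13, 12 were lower past 2-fold, where 5.17% of all bright genes were. Dcn, which encodes the matrix proteoglycan decorin, read 9.24 on the Ets2-deficient array, against 11.85 on the Ets2-expressing array. On the tumor arrays the fibroblast mean was 9.19 (Ets2-deficient) and 9.21 (Ets2-expressing), with all 13 at or above the median on both and none below the 25th percentile on any array. Mast cell markers had a mean of 5.02 on the remodeling Ets2-deficient array, against 6.70 on the remodeling Ets2-expressing array (2 and 4 of 7 at or above the median). The sort was for YFP-positive macrophages. In these bulk samples fewer cells of a type and less RNA per cell cannot be told apart, and the part of fibroblasts or mast cells in the values of the 5 genes was not tested. Platelet and megakaryocyte markers were nearly level, at a mean of 6.23 on the remodeling Ets2-deficient array, against 6.08 on the remodeling Ets2-expressing array, with 2 of 7, Pf4 and Ppbp, at or above the median on every array. Pericyte and smooth muscle markers had a mean of 5.29 on the remodeling Ets2-deficient array, against 5.73 on the remodeling Ets2-expressing array. Of the 8, 3 were bright and 2 of these were lower past 2-fold, Pdgfrb (-2.29) and Acta2 (-1.05). Mammary epithelial markers had a mean of 5.12 on the Ets2-deficient array, against 5.74 on the Ets2-expressing array, and all 3 bright ones of the 10 were lower past 2-fold, Krt19 (-1.54), Krt18 (-1.51) and Csn3 (-1.27). Of 3 bright neutrophil markers, 1 was lower past 2-fold, Cxcr2 (-1.12). Endothelial markers had 1 of 8 at or above the median on the Ets2-deficient array, against 2 on the Ets2-expressing array. Of the 2 bright ones, 1 was lower past 2-fold, Tek (-2.76). The part of these lists in the values of the 5 genes was not tested either.

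**Figure D2:**
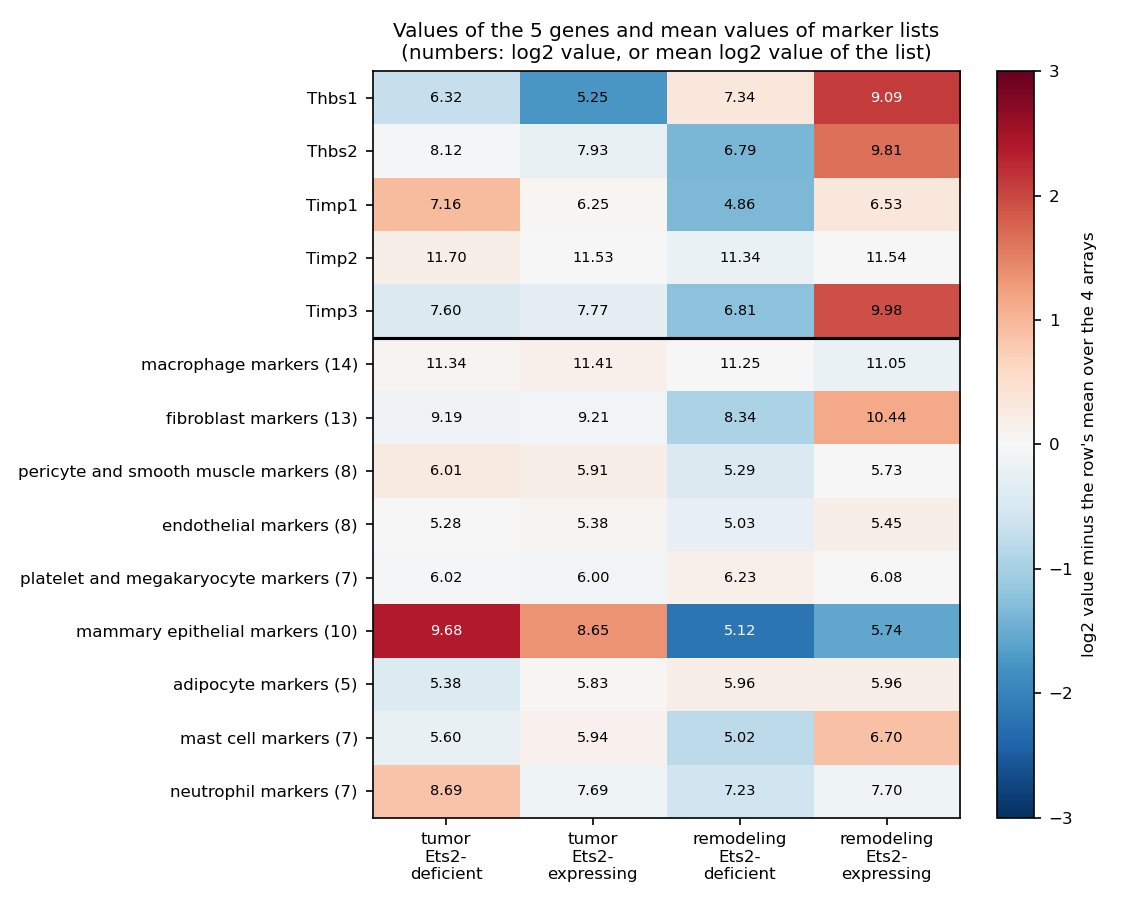
Log2 values of the 5 genes and mean log2 values of marker lists (numbers in the cells, number of measured genes in brackets) on the 4 arrays, coloured by the value minus the row's own mean. The fibroblast row is highest (10.44) and lowest (8.34) on the same arrays as Thbs2 and Timp3, the macrophage row stays between 11.05 and 11.41, and Thbs1 is lowest on the tumor Ets2-expressing array.

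The genes stood at different places within the fibroblast list. In the remodeling Ets2 comparison the list's median was -2.14, with Timp3 and Thbs2 below it and Thbs1, Timp1 and Timp2 above it, and its lowest marker, Loxl1, at -3.46. In the tumor Ets2 comparison the median was -0.03, near the values of Thbs2 and Timp3, whereas Thbs1 (1.07) and Timp1 (0.91) lay above every one of the 13 markers, the highest of which, Mfap5, was at 0.62.

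The tumor and remodeling arrays were then set against each other within each Ets2 label. These comparisons share arrays with the Ets2 comparisons and are no independent evidence. The tumor Ets2-expressing sample has 1 copy of Ets2 in its source label, whereas the remodeling one is wild type. If that label holds, setting and Ets2 copies cannot be told apart on the Ets2-expressing arrays. On the Ets2-expressing arrays, 3 of 5 genes were lower past 2-fold in tumor macrophages, where 5.2% of 7253 bright genes were lower and 6.18% higher. Thbs1 differed by -3.84 log2, and by brightest probe sets no bright gene had a more negative difference. The mean of its 2 probe sets gave -2.13, and the dim one alone -0.43. Timp3 differed by -2.21 and Thbs2 by -1.88, with 35 and 81 of the bright genes more negative. Timp1 (-0.29) and Timp2 (-0.01) were within the spread between probe sets. The fibroblast list had a median of -1.31 here, and 8 of 13 were lower past 2-fold, its highest and lowest values being -0.55 (Col3a1) and -2.06 (Dcn). By their brightest probe sets, Thbs1 and Timp3 lay below all of them. The 2 other bright Timp3 probe sets gave -2.32 and -1.46, the latter within the range of the list. The mean of all Timp3 probe sets, -1.82, was also within that range. Mammary epithelial markers had a mean of 8.65 on the tumor Ets2-expressing array, against 5.74 on the remodeling Ets2-expressing array, with 9 of 10 higher past 2-fold. Of the bright markers, 4 of 4 for mast cells (median -1.29) and 3 of 4 for neutrophils (median -1.21) were lower past 2-fold in tumor macrophages. The other bright neutrophil marker, Ltf, went the other way and was higher by 3.66 log2. The part of these lists in the Thbs1, Thbs2 and Timp3 values was not tested.

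On the Ets2-deficient arrays the order was another one. Timp1 was higher in tumor macrophages by 2.30 log2 and Thbs2 by 1.33, so 2 of 5 genes were higher past 2-fold, where 7.61% of 7203 bright genes were. Thbs1 was lower by 1.02 log2 (a difference of -1.02), the 1 gene of the 5 in that direction, where 1.61% of bright genes were. The call was lost when its 2 probe sets were averaged (-0.47). Timp3 (0.79) and Timp2 (0.36) were not past 2-fold, although the 2 other bright Timp3 probe sets were, at 1.01 and 1.63. For the fibroblast list the median was 0.67, and 5 of 13 markers were past 2-fold on the higher side, at most 1.91 (Mfap5). Timp1 lay above all 13 and Thbs1 below them. Mammary epithelial markers had a mean of 9.68 on the tumor Ets2-deficient array, against 5.12 on the remodeling Ets2-deficient array, with 10 and 2 of 10 at or above the median, and their part in the Timp1 value was not tested.

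**Figure D3:**
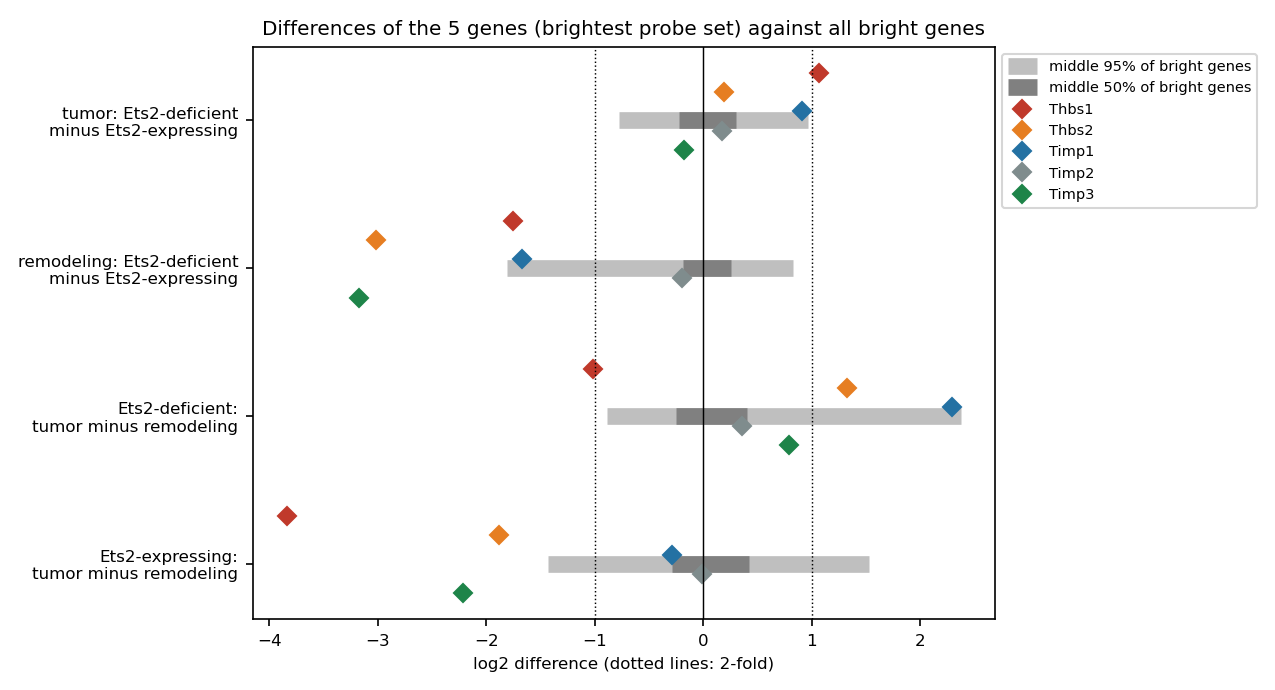
Log2 differences (horizontal axis) of the 5 genes by their brightest probe set in the 4 pairwise comparisons, with grey bars for the middle 50% and 95% of all bright genes and dotted lines at 2-fold. Thbs1 is the leftmost symbol, at -3.84, in the Ets2-expressing comparison of tumor with remodeling, and 4 of 5 genes lie left of -1 in the remodeling Ets2 comparison.

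The difference of the Ets2 differences, tumor minus remodeling, sets the 2 settings side by side without sharing an array between the 2 parts. It was 3.21 log2 for Thbs2, 3.00 for Timp3, 2.82 for Thbs1 and 2.59 for Timp1, and 0.37 for Timp2. Thus 4 of 5 genes were past 1 log2, where 8.5% of 7473 bright genes were higher and 2.94% lower. These values have no replicate error, and the possible difference in Ets2 copies between the Ets2-expressing samples enters them too.

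A number of matrix metalloproteinases and of ADAM and ADAMTS proteases were lower in remodeling macrophages with the Ets2-deficient label. TIMPs inhibit only some ADAM and ADAMTS proteases, so not every listed gene need encode a target of theirs. The list was 26 genes long, 24 of them were measured and 18 were bright in that comparison. There, 8 were lower past 2-fold on the Ets2-deficient array, 1 was higher and 9 were not past 2-fold. Of all 7095 bright genes, 5.17% were lower past 2-fold and 1.31% higher. The list, like the others, was chosen with earlier results of these data known. The median of the 18 bright proteases was -0.53, against 0.048 for all bright genes, and that of all 24 was -0.14. Adamts1, which cleaves thrombospondins and proteoglycans, differed by -2.73 log2 and Mmp2, a gelatinase, by -2.71. Mmp3 (stromelysin-1) differed by -2.25, Adamts4 by -2.22, Mmp23 by -2.07, Adamts5 by -2.01, Adam12 by -1.64 and Mmp14, the membrane-bound activator of pro-Mmp2, by -1.48. Adamts5 read 5.36 on each of the other 3 arrays, below their medians, and 7.37 on the remodeling Ets2-expressing array. Mmp12, the macrophage elastase, was the 1 higher gene, at 8.94 on the remodeling Ets2-deficient array, against 7.79 on the remodeling Ets2-expressing array. In this comparison 12 of 13 fibroblast markers were lower past 2-fold too. The part of fibroblasts or other cells in the protease values was not tested. In the tumor Ets2 comparison 15 of the 24 were bright and none of these was past 2-fold, with a median of 0.032. Adam12 differed there by 1.22 log2 but was not counted, since its 6.27 lay just below the array median of 6.30. Adam8, Adam9, Adam10, Adam15 and Adam17, membrane-anchored proteases, were among those not past 2-fold with the Ets2 label in either setting. Mmp9, another gelatinase, was bright on all arrays and not past 2-fold in any of the 4 comparisons. Mmp14 was higher in tumor than in remodeling macrophages by 2.31 log2 on the Ets2-deficient arrays, together with Mmp3 (2.07), Mmp2 (1.83) and Mmp12 (1.44). These were 4 of 16 bright proteases, and none was lower past 2-fold. Of all 7203 bright genes there, 7.61% were higher and 1.61% lower. On the Ets2-expressing arrays 18 were bright, and tumor minus remodeling gave 2 higher, Mmp12 (2.14) and Mmp13 (1.07). Another 6 were lower, the lowest being Adam12 (-2.94). Of all 7253 bright genes there, 6.18% were higher and 5.2% lower.

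The bright receptors and partners of thrombospondins were within 2-fold with the Ets2 label. Of 16 listed and measured genes, 13 were bright in each comparison and none of these was past 2-fold in either Ets2 comparison. Their medians were -0.06 in tumor and 0.014 in remodeling macrophages. Itga3, at 6.14 on the tumor Ets2-deficient array, lay just below that array's median of 6.30 and was not counted. It differed by 1.64 log2 in the tumor Ets2 comparison. In tumor minus remodeling on the Ets2-deficient arrays it differed by 1.74. Cd36, the scavenger receptor through which thrombospondins act on endothelium, read 10.15 on the tumor Ets2-deficient array, against 10.42 on the tumor Ets2-expressing array, and 11.41 on the remodeling Ets2-deficient array, against 10.73 on the remodeling Ets2-expressing array. It was lower in tumor by 1.26 log2 on the Ets2-deficient arrays (a difference of -1.26). Cd47, the other main receptor, stayed between 11.07 and 11.82. Itga6, a laminin-binding integrin subunit, was higher in tumor on both the Ets2-deficient (1.03) and the Ets2-expressing arrays (1.05).

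**Figure D4:**
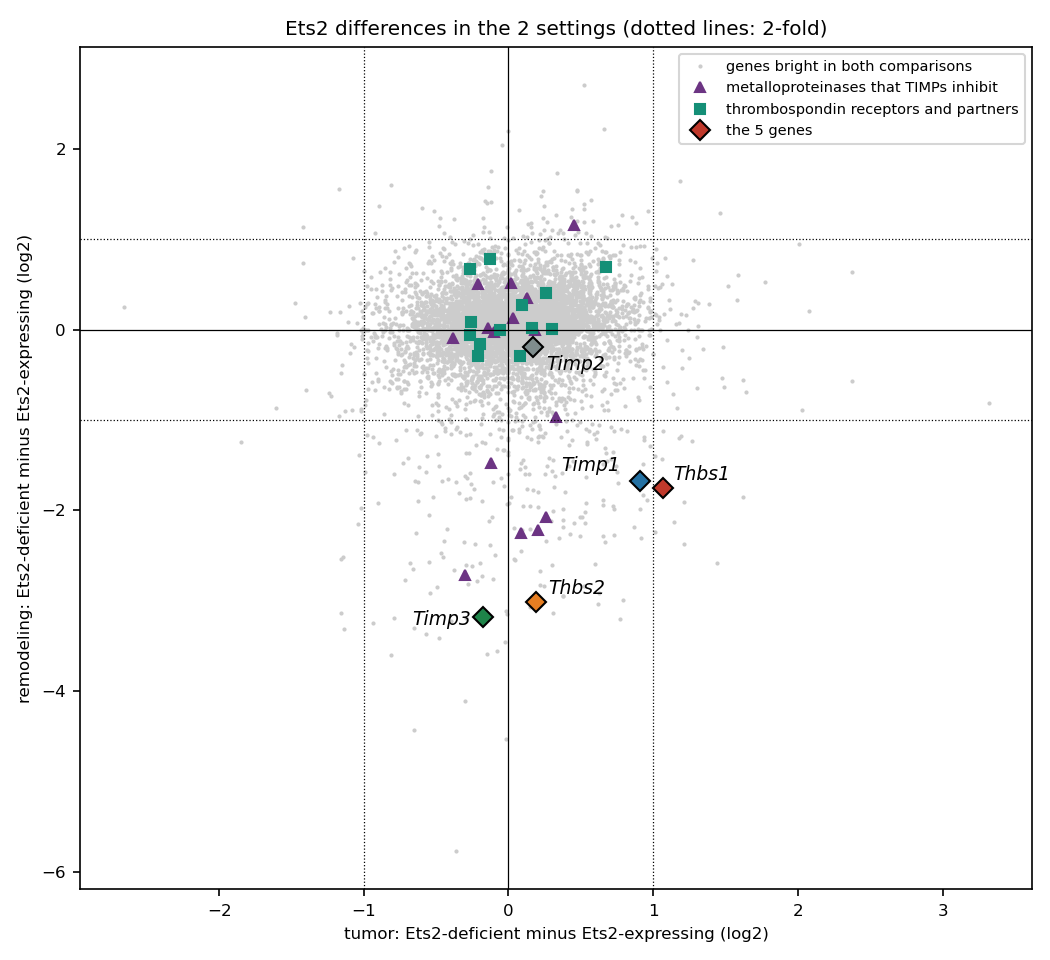
Ets2-deficient minus Ets2-expressing differences in log2 in tumor (horizontal) and remodeling macrophages (vertical) for genes bright in both comparisons, with the 5 genes as labelled diamonds. Thbs1, Thbs2, Timp1 and Timp3 lie below -1 on the vertical axis, proteases (triangles) spread down to -2.71, and thrombospondin receptors and partners (squares) lie within 2-fold of 0 on both axes.

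Several other inhibitors were also lower in remodeling macrophages with the Ets2-deficient label. Among 9 listed inhibitors of matrix proteases, 7 were measured and 6 bright. Of these 6, 4 were lower past 2-fold on the Ets2-deficient array, where 5.17% of 7095 bright genes were. The 4 were Tfpi2, a secreted serine protease inhibitor (-2.83), Reck, a membrane-anchored inhibitor of metalloproteinases (-2.77), Serping1, the C1 inhibitor (-2.73), and Serpinf1, which encodes the antiangiogenic factor PEDF (-1.37). The cathepsin inhibitors Cst3 (0.05) and Cstb (-0.11) were level. Of 15 measured further angiogenesis inhibitors, 11 were bright and 7 lower past 2-fold, none higher. Beside Adamts1, Serpinf1 and Dcn (-2.61), they were Spry2, an inhibitor of receptor tyrosine kinase signalling (-1.98), Col18a1, the source of endostatin (-1.95), the chemokine Cxcl14 (-1.88) and Sparc (-1.10). Flt1, a VEGF receptor whose soluble form binds VEGF, differed by -0.80. In tumor macrophages no gene of these 2 lists was past 2-fold with the Ets2 label, and the medians of the bright ones were -0.18 for the protease inhibitors and 0.19 for the angiogenesis inhibitors. Dcn stands in the fibroblast list too, of which 12 of 13 markers were lower past 2-fold in the remodeling Ets2 comparison. The part of fibroblasts or other cells in the values of these 2 lists was not tested.

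Of the 4 remaining family members measured, Thbs3 and Comp were dim on every array. Thbs3 lay between 4.11 and 4.46 and Comp, the fifth thrombospondin, between 4.84 and 5.28, below the median of every array. Thbs4, a thrombospondin of muscle and tendon matrix, read 6.94 on the tumor Ets2-deficient array, against 6.31 on the tumor Ets2-expressing array, and 4.74 on the remodeling Ets2-deficient array, against 4.94 on the remodeling Ets2-expressing array. It was thus higher in tumor past 2-fold under both labels (2.20 and 1.36 log2), with the remodeling values below the array medians. Timp4 read 4.70 on the tumor Ets2-deficient array, against 6.07 on the tumor Ets2-expressing array, 1.37 log2 apart but with both values below the median, and 6.46 on the remodeling Ets2-deficient array, against 6.44 on the remodeling Ets2-expressing array. It was lower past 2-fold in tumor on the Ets2-deficient arrays (-1.76). Its difference of the Ets2 differences was -1.39, opposite in sign to those of Thbs1, Thbs2, Timp1 and Timp3.

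For each gene the most similar patterns over the 4 arrays were sought among 7472 other genes, by the root mean square difference of values centred on their own mean. With 4 arrays such likeness is a description only. Nearest to Thbs2 were Lamb1 (0.091 log2), a laminin chain, Aldh1a3 (0.116), Fstl1 (0.123), Adgrd1 (0.143) and Tek (0.151), the angiopoietin receptor gene. Nearest to Timp3 were Robo1 (0.084), Adgrd1 (0.116), the stromal surface antigen gene Cd248 (0.122), the small proteoglycan gene Ogn (0.141) and Gfpt2 (0.142). Thbs2 and Timp3 were 0.258 apart, where 20 genes were closer to Timp3 and 24 closer to Thbs2. Timp1 was nearest to Crip2 (0.068), Thy1 (0.135), Pdzrn3 (0.173), Nckap1 (0.189) and Dmpk (0.192). The gene nearest to Thbs1, Padi4, was 0.284 away, followed by Adam12 (0.463), Serpinb2 (0.465), the chemokine gene Ccl7 (0.607) and Bcl6b (0.617). Timp2, being level, was nearest to other level genes, the first being Gabarapl2 (0.011), Lactb (0.017), Cox17 (0.022), Cebpd (0.023) and Sec13 (0.023).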

How the data were processed

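Gene expression was measured on 4 Affymetrix mouse arrays of 22690 probe sets, 1 per group. Per the labels' protocols, YFP-positive macrophages were flow-sorted and about 10 ng of total RNA was amplified with NuGEN Ovation reagents. The deposited values are log2 expression values. GCOS and RMA are named, per the submitters' processing notes, with version, order, role and joint normalization not given in the sources used here. No further scaling was applied. Groups came from the sample titles.

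Of the probe sets, 20380 named 1 gene, 691 several and 64 were controls. A gene was its brightest probe set (highest mean over the 4 arrays). Differences were counted from 2-fold where the brighter array was at or above its median, with Python 3.11.15 and pandas 2.3.3. Only the counting itself was checked on simulated data, which says nothing about the error between arrays. Genes named are the 5 genes, Ets2, the 5 nearest patterns of each, and a part of the list members past 2-fold. Not every list member past 2-fold is named. A few more were named after their values were seen. The members and lists were chosen with earlier results of these data known. Alternatives were 3 scalings, probe set means, a 1.5-fold limit, no brightness filter and a filter at the 75th percentile.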

Additional observations from a re-analysis of the deposited data

Results flagged for a closer look

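By brightest probe sets, the Ets2 differences of 3 genes had opposite signs in tumor and remodeling macrophages and lay more than 1 log2 apart, with 1 array behind each value. Those of Timp2 (0.17 in tumor, -0.20 in remodeling macrophages) also had opposite signs, 0.37 apart and each within the spread between probe sets. Timp3 was negative in both settings by its brightest probe set. Its other bright probe sets had opposite signs, at 0.335 and 0.238 in tumor against -2.998 and -2.851 in remodeling macrophages. Those tumor values were within the spread between probe sets. The difference of the 2 differences, tumor minus remodeling, was 2.82 log2 for Thbs1, 3.21 for Thbs2 and 2.59 for Timp1. Of 7473 bright genes, 8.5% were higher past 1 log2 in this difference, whatever the signs of its 2 parts. For Thbs2 the tumor part (0.19) was within the spread between probe sets. The difference was not tested, since no group had a second array.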

How the results depend on the processing

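No paired analysis was possible because each group had 1 array and no test was run. Leaving out an array leaves no comparison. In remodeling macrophages the same 4 genes stayed lower past 2-fold with the Ets2-deficient label under every alternative run except the 75th percentile filter, which dropped Timp1 and left 3. The 3 genes lower in tumor on the Ets2-expressing arrays were the same under every alternative. The 4 past the limit in the difference of differences were the same under each alternative run for it. Neither the 75th percentile filter, which dropped Timp1 above, nor centring on hybridization controls was run for the difference of differences. In the tumor Ets2 comparison the number of genes higher past the limit, 1 here, was 0 after centring on array medians, after quantile normalization, with means of all probe sets and with the 75th percentile filter, and 2 (with Timp1) at 1.5-fold. In tumor minus remodeling on the Ets2-deficient arrays, the 2 higher genes became 0 with the 75th percentile filter, and the 1 lower gene, Thbs1, became 0 with that filter and with means of all probe sets. Each filter or average changes which probe sets are counted. Centring on array medians moved the median of all genes from 0.037 to 0.23 in the remodeling Ets2 comparison and from 0.012 to -0.31 in tumor minus remodeling on the Ets2-deficient arrays. Of all genes past 2-fold, the share that was higher was 74.5% as deposited, 58.1% after median centring, 59.6% after quantile normalization and 82.7% after centring on hybridization controls for the Ets2 label in tumor macrophages. For the Ets2 label in remodeling macrophages it was 20.2%, 39.5%, 24.9% and 39.8%. In tumor minus remodeling it was 82.5%, 50.8%, 71.6% and 61.3% on the Ets2-deficient arrays and 54.3%, 49.5%, 53.4% and 45.7% on the Ets2-expressing arrays. For the difference of differences it was 74.3%, 43.5% and 61.2%, without the last setting. At 1.5-fold the share of bright genes past the limit was 15.3% in tumor and 16.3% in remodeling macrophages, against 2.99% and 6.48% at 2-fold. Thbs1 on the tumor Ets2-expressing array and Timp1 on the remodeling Ets2-deficient array lay below the array median. With the mean of its probe sets Thbs1 gave 0.63 and -1.04 in the tumor and remodeling Ets2 comparisons, -0.47 and -2.13 in tumor minus remodeling with the Ets2-deficient and Ets2-expressing labels, and 1.66 for the difference of differences.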

Other observations

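A further bright probe set is annotated to both Pald1 and Thbs1 and was assigned to neither. It read 8.96 on the tumor Ets2-deficient array, against 8.10 on the tumor Ets2-expressing array, and 10.04 on the remodeling Ets2-deficient array, against 11.30 on the remodeling Ets2-expressing array. Its order over the 4 arrays was that of the brightest Thbs1 probe set, with differences of 0.86 in tumor and -1.27 in remodeling macrophages for the Ets2 label and -3.20 for tumor against remodeling macrophages that express Ets2.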
